A study of Rattus norvegicus with 6 samples.

Results

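The fatty acid degradation enzymes of rat myocardium were compared between sham surgery and 30 min of ischemia. The members were all genes that the deposited annotation places in the KEGG pathway fatty acid degradation, which gave 44 of the 32623 genes in the table. RNA was sequenced from myocardial tissue of wild-type (WT) male rats, 3 samples after sham surgery and 3 after 30 min with the left anterior descending coronary artery tied. The rats of both groups are described with the same anesthesia, ventilation and thoracotomy, and for sham no tying of the artery is described. The protocols do not say from which region of the heart the tissue was taken, so ischemic and spared muscle of one sample cannot be told apart.

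Cardiac muscle makes most of its ATP by oxidizing long-chain fatty acids in mitochondria. Acyl-CoA synthetases first join the fatty acid to coenzyme A, the carnitine shuttle moves it across the mitochondrial membranes, and acyl-CoA dehydrogenases, hydratases, hydroxyacyl-CoA dehydrogenases and thiolases then shorten the chain by repeated rounds of beta-oxidation. Peroxisomes oxidize very long chains, cytochromes of the Cyp4a family start oxidation from the other end of the chain, and PPAR alpha with its coactivator PGC-1 alpha switches many of these genes on.

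Levels are given as FPKM, a fragment count divided by gene length and library size, which is scaled by gene length and allows genes to be compared. Of the 44 members, 36 had a mean of at least 0.5 FPKM over the 6 samples and were tested together with all 13964 genes above that level. Library totals ranged from 68529126 to 79591989 counts, and 3 counts, taken as the limit of detection for counting error only, were 0.0377 to 0.0438 CPM (counts scaled to library size). The members took 0.432% to 1.32% of all counts of a sample. The samples of the sham group were unlike each other in their markers. Sham samples 1 and 3 held 48344 and 39345 summed FPKM of 5 atrial genes against 216 in sham sample 2, and 1795 and 1985 of 3 ventricular genes against 13474. In the ischemia samples 1, 2 and 3 the atrial sums were 9610, 2078 and 1279, and the ventricular sums were 9500, 4655 and 9488. A cardiomyocyte list, of which 8 of 10 genes were found, was present in every sample and summed to 24113 to 29588 in sham and 10087 to 18213 in ischemia. Actc1, cardiac actin, carried the separation of the sums. Without it (a check made after seeing the values) they were 13902 to 18761 in sham and 7208 to 15269 in ischemia, which overlap. Taken singly, Myoz2, Ryr2, Actn2 and Ldb3 were, like Actc1, lower in every ischemia sample than in any sham sample. The abundant Tnni3, Tnnc1 and Tnnt2 overlapped between the groups. The rats are described as male, but 3 Y-linked genes together had only 26 counts in sham sample 1, where each other library had 1772 to 4318. The values below are therefore also given without the samples in doubt where a result rests on them.

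No member passed the adjusted threshold of 0.05 in either direction by the quasi-likelihood test of edgeR with Benjamini-Hochberg adjustment over all genes, where the shares called over all tested genes were 5.18% higher and 1.53% lower. With an unadjusted p under 0.05, 2 members were higher and 5 were lower, which is 5.56% and 13.9% of the members tested, beside 18.2% and 14.2% of all genes. DESeq2 called 2 members higher, Acsl4 and Acsl5, and 2 lower, Acsl1 and Adh6, beside 14.8% and 12.5% of all genes, and limma called none beside 6.09% and 1.88%. No member had a log2 fold change past 2 with an unadjusted p under 0.01, beside 3.31% of all genes higher and 1.34% lower. Below 0 on the log2 scale were 33 of the 36 fold changes, with a median of -0.51, while all genes split into 6968 above and 6996 below 0. The FPKM ranges of the 2 groups did not overlap for 2 members that were higher and 6 that were lower, 5.56% and 16.7% of those tested, beside 23.6% and 15% of all genes. The 6 were Acsl1, Gcdh, Aldh9a1, Adh5, Adh6 and Ehhadh. The median depended on sham sample 2, as it was -0.06 without that sample and -0.69 without sham sample 1. In bulk tissue, fewer cells of a type and less RNA per cell cannot be told apart.

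**Figure D1:**
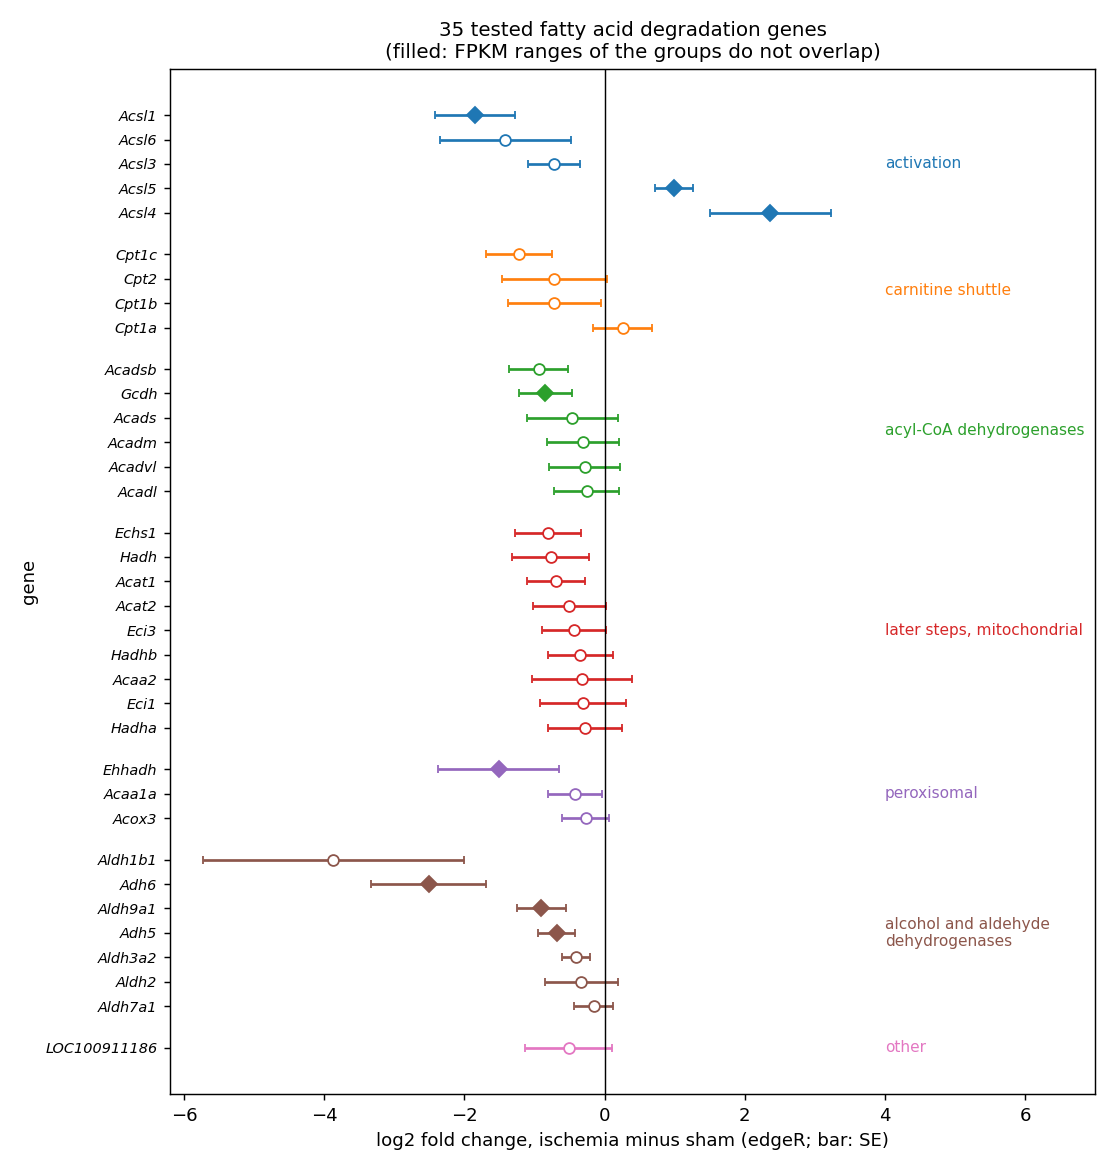
Log2 fold change (x axis, ischemia minus sham, edgeR) of 35 of the 36 tested genes, grouped by role on the y axis, with the standard error as a bar and filled diamonds where the FPKM ranges of the groups do not overlap. In this plot 32 genes lie below 0, and the diamonds are 2 synthetases above 0 and 6 genes below 0.

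Among the activating enzymes, the long-chain acyl-CoA synthetases, Acsl1 was lower and Acsl4 and Acsl5 were higher in every ischemia sample than in any sham sample, and none of the 3 passed the adjusted test of edgeR. Acsl1, the main cardiac synthetase, which feeds beta-oxidation, had 128, 202 and 125 FPKM in the sham samples and 77.3, 20.8 and 38.0 in the ischemia samples. All ischemia samples lay below all sham samples, a 0.277-fold level with a log2 fold change of -1.85 ± 0.57 (SE, n = 3 per group) and an edgeR adjusted p of 0.0891. Acsl5, which is found on mitochondria and the endoplasmic reticulum, had 11.7, 8.36 and 13.5 FPKM in sham and 16.0, 33.3 and 21.4 in ischemia. Here all ischemia samples lay above all sham samples, a 1.99-fold level with a log2 fold change of 0.99 ± 0.27 (SE) and an edgeR adjusted p of 0.0698. Acsl4, which prefers arachidonic acid and other polyunsaturated chains, had 1.74, 0.65 and 1.88 FPKM in sham and 1.94, 18.5 and 3.15 in ischemia. The groups did not overlap, but the lowest ischemia sample was close to the highest sham sample and ischemia sample 2 stood far above the others. Its log2 fold change was 2.36 ± 0.86 (SE), the highest of all members, with an edgeR adjusted p of 0.124.

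The DESeq2 adjusted p was 0.00658 for Acsl1, 0.0106 for Acsl5 and 0.0183 for Acsl4, so the call for each depended on the tool. With ischemia sample 1 left out, edgeR called Acsl1 lower (adjusted p = 0.0350) and Acsl5 higher (adjusted p = 0.0265), beside 7.98% of all genes lower and 10.7% higher. With sham sample 1 left out, the adjusted p was 0.188 for Acsl1 and 0.198 for Acsl5, with log2 fold changes of -2.01 and 0.99. Over the settings that left out 1 sample, the log2 fold change ranged from -2.49 to -1.44 for Acsl1, from 0.72 to 1.18 for Acsl5 and from 0.86 to 2.80 for Acsl4. A list of 8 neutrophil and monocyte genes summed to 15.1, 23.5 and 14.7 FPKM in sham and 521, 3714 and 516 in ischemia, with 7 of 7 tested genes higher in ischemia. That sum was highest in ischemia sample 2, the sample with the highest Acsl4 and Acsl5 and the lowest Acsl1, and its part in these values was not tested. The remaining synthetases overlapped between the groups, Acsl3 between 2.47 and 7.68 FPKM and Acsl6 between 0.27 and 3.26.

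The makeup of the synthetases within a sample was computed after their values had been seen. Acsl1 made up 86.3%, 93.2% and 84.1% of the summed FPKM of the 5 Acsl genes in the sham samples and 77.8%, 26.9% and 57.7% in the ischemia samples. This share averaged 87.9% ± 4.75 in sham and 54.1% ± 25.6 in ischemia (SD, n = 3 each), with no overlap. Acsl5 made up 7.91%, 3.85% and 9.08% in sham and 16.1%, 43.1% and 32.5% in ischemia. In ischemia sample 2, Acsl5 was thus the most abundant of the synthetases by FPKM, while in every other sample it was Acsl1. For each of these shares the two-sided exact permutation test gave p = 0.1, the smallest that 3 samples against 3 allow. Because a share is taken within a sample, scaling between libraries does not enter it, while the mix of cell types in the sample can. Relative to the summed cardiomyocyte list, Acsl1 was 0.4998%, 0.683% and 0.517% in sham and 0.431%, 0.206% and 0.209% in ischemia, again without overlap (exact permutation p = 0.1), and it did not overlap either with Actc1 left out of the list, at 0.838% to 1.08% in sham and 0.282% to 0.506% in ischemia.

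**Figure D2:**
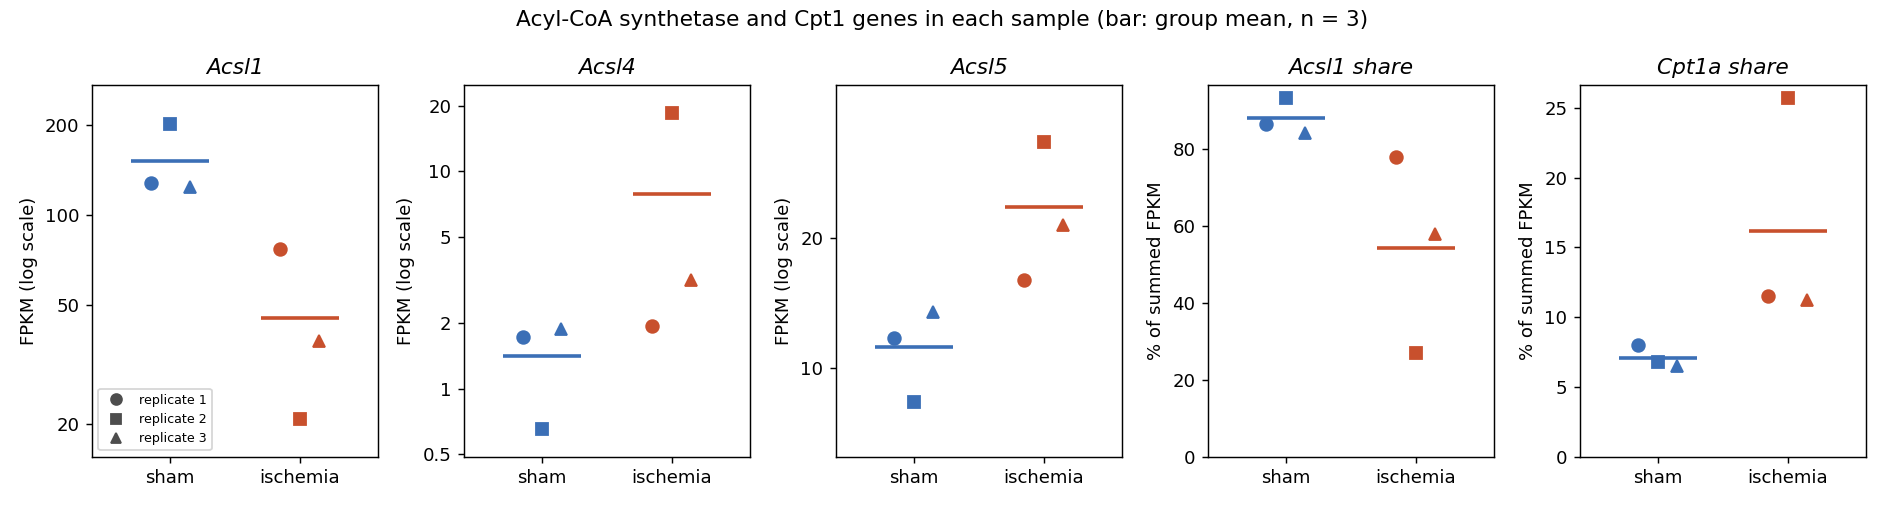
FPKM of Acsl1, Acsl4 and Acsl5 (y axes, log scale), and the share of Acsl1 in the 5 Acsl genes and of Cpt1a in the sum of Cpt1a and Cpt1b (y axes, % of summed FPKM), in each sample, with marker shapes for replicate numbers and bars for the mean of 3 samples. In each of the 5 panels the sham and ischemia points do not overlap, and ischemia sample 2 lies farthest from the sham group.

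The start regions of these 3 synthetases are shown because the genes share a reaction, while their fold changes lay on opposite sides of 0. The RefSeq windows run from 250 bases before to 50 bases after the annotated gene start in build GRCr8, 5′ to 3′ on the gene's strand, 1 window per gene. They were searched on both strands for AGGTCA, the core motif of nuclear receptors, and for DR1, 2 copies of it with 1 base between, the arrangement that PPAR and RXR bind, with up to 2 mismatches. Capitals mark matches of either motif. None of the 3 windows held one, which says only that these letters are not there. Whether transcription begins at these annotated starts was not tested. The windows are chr16:52532343-52532642 on the minus strand for Acsl1, chr1:264294601-264294900 on the plus strand for Acsl5 and chrX:110803212-110803511 on the minus strand for Acsl4. Their GC content was 40.7%, 49.7% and 70.7%.
Acsl1: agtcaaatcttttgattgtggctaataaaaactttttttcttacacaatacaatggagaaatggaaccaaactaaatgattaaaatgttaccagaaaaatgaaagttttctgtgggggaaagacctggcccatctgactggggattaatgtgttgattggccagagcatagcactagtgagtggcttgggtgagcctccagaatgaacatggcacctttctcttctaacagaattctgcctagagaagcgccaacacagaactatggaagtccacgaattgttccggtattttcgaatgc
Acsl5: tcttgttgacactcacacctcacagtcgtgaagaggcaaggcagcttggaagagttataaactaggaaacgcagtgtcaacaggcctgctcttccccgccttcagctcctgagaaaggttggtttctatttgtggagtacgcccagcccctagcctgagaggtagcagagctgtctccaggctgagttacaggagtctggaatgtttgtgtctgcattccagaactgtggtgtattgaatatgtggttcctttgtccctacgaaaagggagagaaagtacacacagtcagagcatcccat
Acsl4: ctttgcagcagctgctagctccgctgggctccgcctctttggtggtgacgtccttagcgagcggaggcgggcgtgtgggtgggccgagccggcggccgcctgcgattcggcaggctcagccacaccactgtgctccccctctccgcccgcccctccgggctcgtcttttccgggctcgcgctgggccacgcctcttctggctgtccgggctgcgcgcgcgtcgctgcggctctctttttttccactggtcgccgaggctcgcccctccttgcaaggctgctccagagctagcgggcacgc

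Carnitine shuttle genes overlapped between the groups. Cpt1b, the muscle form of the carnitine palmitoyltransferase that sets the rate of entry, had 119, 198 and 114 FPKM in sham and 161, 28.3 and 93.4 in ischemia. Ischemia sample 1 lay above 2 of the sham samples while ischemia sample 2 was the lowest of all, so the log2 fold change of -0.72 ± 0.66 (SE) did not pass the test (edgeR adjusted p = 0.475). It was -0.26 without sham sample 2, -0.28 without ischemia sample 2 and -1.34 without ischemia sample 1. Cpt2, the inner membrane enzyme that hands the acyl group back to coenzyme A, had 44.4, 141 and 46.3 FPKM in sham and 90.7, 20.4 and 46.2 in ischemia (edgeR adjusted p = 0.525). Cpt1a, the liver form, had 10.4, 14.3 and 7.89 FPKM in sham and 21.0, 9.78 and 11.8 in ischemia (log2 fold change 0.26 ± 0.42 SE, edgeR adjusted p = 0.686). Cpt1c, the form known from brain, stayed between 0.69 and 3.60 FPKM in all samples. Taken within each sample, a comparison also made after the values were seen, Cpt1a made up 8.02%, 6.75% and 6.47% of the sum of Cpt1a and Cpt1b in sham and 11.5%, 25.7% and 11.2% in ischemia. These shares did not overlap (exact permutation p = 0.1, the smallest possible), although neither gene by itself separated the groups.

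The acyl-CoA dehydrogenases of straight chains, among them the most abundant member, showed no separation of the groups. Acadl, which acts on long chains, had 479, 923 and 512 FPKM in sham and 788, 384 and 583 in ischemia (log2 fold change -0.25 ± 0.46 SE, edgeR adjusted p = 0.720). Acadvl, the enzyme of very long chains on the inner membrane, had 151, 318 and 150 FPKM in sham and 251, 115 and 194 in ischemia (log2 fold change -0.28 ± 0.51 SE). Acadm, the medium-chain enzyme, had 120, 302 and 155 FPKM in sham and 225, 112 and 177 in ischemia (log2 fold change -0.31 ± 0.51 SE). In all 3 genes, sham sample 2 was the highest and ischemia sample 1 the next, and ischemia sample 2 was the lowest. Gcdh, the glutaryl-CoA dehydrogenase of lysine and tryptophan breakdown, differed from them in that its groups did not overlap, with 38.6 to 60.6 FPKM in sham and 18.9 to 37.6 in ischemia (edgeR adjusted p = 0.175). The groups nearly met, and sham sample 2 was again the highest and ischemia sample 2 the lowest. Its log2 fold change was -0.85 ± 0.38 (SE), and -0.49 without sham sample 2. Acadsb, which acts on short branched chains, had its lowest value of all samples in sham sample 2, 2.72 FPKM, and its highest in sham sample 1, 9.98.

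The genes of the later steps also overlapped between the groups. Hadhb and Hadha, the thiolase and hydratase-dehydrogenase subunits of the mitochondrial trifunctional protein, had 432, 779 and 461 FPKM and 200, 422 and 228 FPKM in the sham samples. In the ischemia samples Hadhb had 657, 292 and 482 FPKM and Hadha had 375, 140 and 249. Their log2 fold changes were -0.35 ± 0.46 and -0.28 ± 0.53 (SE), with edgeR adjusted p of 0.625 and 0.729. Hadhb stayed at 1.75 to 2.16 times the FPKM of Hadha in all 6 samples, although the level of each differed over 2-fold between samples. Acadl, on chromosome 9, ranked the 6 samples in the same order as both genes, so this order is not particular to the pair. Acat1, the mitochondrial acetoacetyl-CoA thiolase, had 280, 393 and 287 FPKM in sham and 299, 128 and 209 in ischemia (log2 fold change -0.70 ± 0.41 SE, edgeR adjusted p = 0.276, and -0.39 without sham sample 2). Acaa2, the medium-chain thiolase and chosen after its values were seen, had 97.5, 522 and 186 FPKM in sham and 285, 150 and 293 in ischemia.

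Hadha and Hadhb lie head to head on chromosome 6, at 27589657 to 27629175 on the plus strand and 27555412 to 27582995 on the minus strand as the table lists them, in a build not given in the sources used here. In GRCr8 the RefSeq starts of the 2 genes were separated by 300 bases, and their start windows, chr6:31907551-31907850 for Hadha and chr6:31907451-31907750 for Hadhb, share 200 bases read on opposite strands. They are printed because the 2 genes encode subunits of the same protein and share this stretch. Its bearing on their levels was not tested. The Hadhb window held 1 AGGTCA beginning 42 bases after the start, in capitals, and the Hadha window held none.
Hadha: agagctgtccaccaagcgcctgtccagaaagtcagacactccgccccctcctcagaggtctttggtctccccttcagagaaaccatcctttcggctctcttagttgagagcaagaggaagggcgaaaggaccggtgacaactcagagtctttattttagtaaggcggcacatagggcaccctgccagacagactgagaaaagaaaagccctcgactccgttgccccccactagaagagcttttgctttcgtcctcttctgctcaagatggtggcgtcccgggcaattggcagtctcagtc
Hadhb: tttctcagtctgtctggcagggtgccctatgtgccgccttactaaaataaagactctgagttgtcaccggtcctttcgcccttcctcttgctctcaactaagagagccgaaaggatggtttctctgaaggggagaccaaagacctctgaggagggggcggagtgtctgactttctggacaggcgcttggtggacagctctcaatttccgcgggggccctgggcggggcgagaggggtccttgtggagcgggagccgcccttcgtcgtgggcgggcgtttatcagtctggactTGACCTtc

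Over the members, 35 of 44 had a RefSeq window, of which 8 (22.9%) held AGGTCA on either strand, beside 16.2% of all 33469 windows of this length. Those 33469 windows belong to 27457 gene symbols, so some symbols are counted there more than once. A DR1 with at most 1 mismatch was found in 1 member, Acadvl, 2.86% beside 0.439% of all windows, and with at most 2 mismatches in 3 members, Acadvl, Adh6 and Echs1, 8.57% beside 3.77%. DR1 and AGGTCA matches can overlap, as they do where a DR1 holds an intact copy. The Acadvl window, chr10:55236656-55236955 on the minus strand, is shown for that match, which begins 17 bases before the start, with a single AGGTCA farther upstream.
Acadvl: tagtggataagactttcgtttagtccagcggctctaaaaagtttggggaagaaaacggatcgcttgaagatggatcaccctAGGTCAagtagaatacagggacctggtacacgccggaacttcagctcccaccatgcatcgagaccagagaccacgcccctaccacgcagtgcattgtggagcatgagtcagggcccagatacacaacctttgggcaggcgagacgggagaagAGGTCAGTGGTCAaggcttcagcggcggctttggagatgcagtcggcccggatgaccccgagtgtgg

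The acyl-CoA dehydrogenases and enzymes of the later steps with a mean of at least 50 FPKM were 12 genes, and none of them separated the groups. Their summed FPKM was 2340, 4879 and 2583 in sham and 3751, 1625 and 2769 in ischemia (exact permutation p = 0.7). Sham sample 2 was the highest in 12 of 12 genes and ischemia sample 2 the lowest in 11 of 12, and ischemia sample 1 lay above sham samples 1 and 3 in 11 of 12. Sham sample 2 exceeded the mean of the other sham samples by a factor of 1.39 in Acat1 to 3.68 in Acaa2. The 12 log2 fold changes lay between -0.81 and -0.25 with standard errors of 0.41 to 0.72, and the edgeR adjusted p between 0.267 and 0.774. The -0.81 and the 0.267 are those of Echs1, whose counts are uncertain because reads could be shared with LOC100911186. Against sham sample 2 alone, where 0% of all genes were called in either direction, the sham sample with the highest ventricular and the lowest atrial sum, the 12 log2 fold changes lay between -1.44 and -0.94, with no adjusted p below 0.394. That fit has 1 sham sample, which is assumed to vary like the ischemia samples, so that its p-values say little about these genes. Without sham sample 2 they lay between -0.39 and 0.81, and 9 of 12 were above 0. Relative to the summed cardiomyocyte list the 12 genes came to 9.13%, 16.5% and 10.7% in sham and 20.9%, 16.1% and 15.2% in ischemia, which overlap (exact permutation p = 0.3). Ordered by this summed FPKM, the samples stood as they did by the ventricular sum except for ischemia sample 2, which was the lowest here and had the lowest cardiomyocyte sum, 10087. The part of tissue region and cell makeup in these values was not tested.

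**Figure D3:**
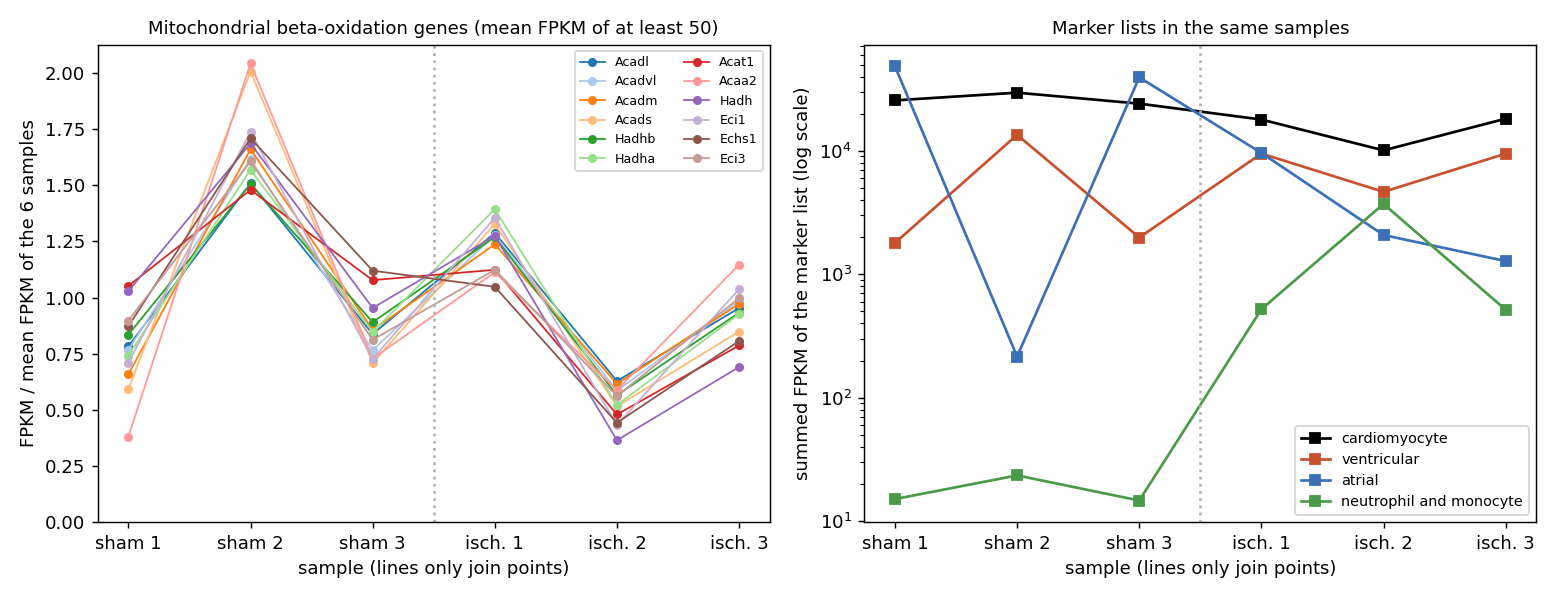
Left, FPKM of 12 beta-oxidation genes in each sample divided by the gene's mean over the 6 samples (y axis). Right, summed FPKM of the cardiomyocyte, ventricular, atrial and neutrophil and monocyte lists in the same samples (y axis, log scale). Sham sample 2 is the highest for 12 of 12 genes and is also the sample with the lowest atrial sum, 216, and the highest ventricular sum, 13474.

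Below both other sham samples in sham sample 2 were 9 of the 36 tested members (25%), beside 63.8% of all tested genes. The 9 were Acsl3, Acsl4, Acsl5, Acadsb, Acat2, Adh5, Aldh3a2, Aldh1b1 and Cpt1c. Aldh1b1, a mitochondrial aldehyde dehydrogenase, was the extreme case and had the lowest log2 fold change of all members. It had 1246, 0 and 595 counts in sham and 92, 19 and 19 in ischemia, so that its log2 fold change of -3.87 ± 1.86 (SE) rested on sham samples 1 and 3 (edgeR adjusted p = 0.198). These are the samples with the atrial sums of 48344 and 39345. With the atrial list as a covariate its log2 fold change was 1.58, and the 0 counts of sham sample 2 allow up to 3 counts.

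The peroxisomal enzymes described here were lower in level than most mitochondrial ones. Acaa1a, the peroxisomal thiolase, had 10.98, 18.4 and 15.7 FPKM in sham and 16.6, 8.13 and 11.3 in ischemia (edgeR adjusted p = 0.468). Acox3, the oxidase of branched chains, had 7.16, 8.49 and 5.89 FPKM in sham and 8.004, 4.63 and 6.53 in ischemia (edgeR adjusted p = 0.589). Ehhadh, the peroxisomal hydratase-dehydrogenase, had 2.36, 3.46 and 1.78 FPKM in sham and 1.45, 0.13 and 1.26 in ischemia. Its log2 fold change of -1.51 ± 0.87 (SE) did not pass the test (edgeR adjusted p = 0.263).

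Of the aldehyde and alcohol dehydrogenases, Aldh2, which clears acetaldehyde and lipid peroxidation aldehydes in mitochondria, was the most abundant with 139, 359 and 182 FPKM in sham and 249, 124 and 223 in ischemia (edgeR adjusted p = 0.680). Aldh9a1, which oxidizes an aldehyde on the path to carnitine, had 39.8, 42.9 and 36.7 FPKM in sham and 33.6, 15.4 and 19.2 in ischemia. Its sham samples were close to each other and lay above all ischemia samples, with a log2 fold change of -0.90 ± 0.35 (SE) and an edgeR adjusted p of 0.135. Aldh7a1, the antiquitin of lysine breakdown, had 40.3, 48.4 and 41.1 FPKM in sham and 53.6, 32.1 and 39.0 in ischemia, which overlap. Adh5, the formaldehyde and nitrosoglutathione dehydrogenase, lay between 11.8 and 14.2 FPKM in sham and 6.36 and 11.6 in ischemia (edgeR adjusted p = 0.134). Adh6 had 3.28, 3.49 and 8.22 FPKM in sham and 2.01, 0.39 and 0.31 in ischemia (log2 fold change -2.51 ± 0.82 SE, edgeR adjusted p = 0.101, DESeq2 adjusted p = 0.00761). The summed FPKM of 6 adipocyte genes was likewise highest in sham sample 3, 347, and lowest in ischemia sample 3, 8.45. The part of adipocytes in the values of Adh6 was not tested. With ischemia sample 1 left out, edgeR called Aldh9a1, Adh5, Adh6 and Cpt1c lower besides Acsl1, which is 13.9% of the members tested beside 7.98% of all genes, and the log2 fold change of Adh6 was then -3.90.

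The members that were not tested were barely detected. The 4 Cyp4a genes, the omega hydroxylases of liver and kidney, had at most 8 counts in any library, and Acsbg1, Acsbg2, Adh7 and LOC316124 stayed at or below 0.66 FPKM. Echs1, the short-chain enoyl-CoA hydratase, and LOC100911186, which the table describes as a mitochondrial enoyl-CoA hydratase-like gene, had nearly the same counts in 4 samples, with ratios of 1.0002 to 1.0037. The ratio was 0.419 in sham sample 3 and 1.08 in ischemia sample 1. Reads shared by near-identical copies could have been split between them, so both values are uncertain. LOC100911186 itself had 90.5, 177 and 48.6 FPKM in sham and 117, 46.0 and 83.6 in ischemia (edgeR adjusted p = 0.588).

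Genes that supply fatty acids or control the pathway were read from a list of 42, of which 41 were found and 40 tested. Higher in ischemia were 3 (edgeR, adjusted p under 0.05), 7.5% of those tested beside 5.18% of all genes, and none were lower, beside 1.53%. At an unadjusted p under 0.05 the counts were 4 higher and 8 lower, 10% and 20% beside 18.2% and 14.2% of all genes. DESeq2 called 4 higher and 6 lower, 10% and 15% beside 14.8% and 12.5%, and limma called 4 and 1, 10% and 2.5% beside 6.09% and 1.88%. Angptl4, a secreted inhibitor of lipoprotein lipase and a known target of PPARs and hypoxia, had 0.74, 1.30 and 2.82 FPKM in sham and 140, 76.5 and 99.1 in ischemia. It rose 62.3-fold, with a log2 fold change of 5.96 ± 0.61 (SE) and an edgeR adjusted p of 0.0246. Plin2, the coat protein of lipid droplets, had 73.1, 60.0 and 58.2 FPKM in sham and 241, 323 and 206 in ischemia, and rose 3.75-fold (edgeR adjusted p = 0.0272). Slc27a4, a fatty acid transport protein with acyl-CoA synthetase activity, had 6.66, 5.07 and 7.99 FPKM in sham and 14.1, 24.2 and 20.7 in ischemia, and rose 2.83-fold (edgeR adjusted p = 0.0311). For each of the 3, every ischemia sample lay above every sham sample. Plin2 and Slc27a4, unlike Angptl4, were highest in ischemia sample 2, where the neutrophil and monocyte sum was 3714, and its part in their values was not tested. With the atrial list as a covariate the log2 fold changes of Angptl4, Plin2 and Slc27a4 were 6.18, 1.81 and 1.44 with edgeR adjusted p of 0.138, 0.139 and 0.164, and without sham sample 1 they were 5.60, 1.96 and 1.47 with 0.149, 0.157 and 0.159. The calls were likewise lost without sham sample 2 (adjusted p = 0.0819, 0.0819 and 0.0820), sham sample 3 (0.123, 0.125 and 0.129) or ischemia sample 3 (0.110, 0.110 and 0.120), and in each of these settings edgeR called none of the 13964 genes.

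Pdk4, the kinase that closes pyruvate dehydrogenase and spares glucose when fat is burned, had 20.7, 12.2 and 11.7 FPKM in sham and 85.6, 32.4 and 122 in ischemia. The groups were far apart, with a log2 fold change of 2.38 ± 0.54 (SE), but its edgeR adjusted p of 0.0511 narrowly missed the threshold of 0.05, while DESeq2 (adjusted p = 0.00025) and limma on log2(FPKM + 0.1) (adjusted p = 0.044) called it higher. Without ischemia sample 2 it was called by edgeR as well (adjusted p = 0.0276). The edgeR adjusted p of Pdk4 was 0.122 without sham sample 2, 0.194 with the atrial covariate and 0.133 with the replicate block. In each of these settings edgeR called no gene in either direction. Ppara, which encodes PPAR alpha, had 4.02, 6.04 and 3.27 FPKM in sham and 2.73, 1.21 and 1.87 in ischemia, and Ppargc1a, which encodes PGC-1 alpha, had 4.50, 5.68 and 3.35 in sham and 3.11, 1.57 and 2.03 in ischemia. Both separated the groups without passing the test (log2 fold changes -1.32 ± 0.47 and -1.12 ± 0.41 SE, edgeR adjusted p = 0.118 and 0.121, DESeq2 adjusted p = 0.0353 and 0.0420). Fabp3, the cytosolic fatty acid carrier of muscle, had 1711, 5351 and 1689 FPKM in sham and 2307, 766 and 1321 in ischemia (edgeR adjusted p = 0.286). Slc25a20, the carnitine-acylcarnitine carrier between Cpt1 and Cpt2, had 55.7, 156 and 59.5 FPKM in sham and 105, 38.5 and 56.2 in ischemia (edgeR adjusted p = 0.524). Both showed the sample order of the mitochondrial enzymes, highest in sham sample 2 and lowest in ischemia sample 2. Cd36 was not analysed here.

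**Figure D4:**
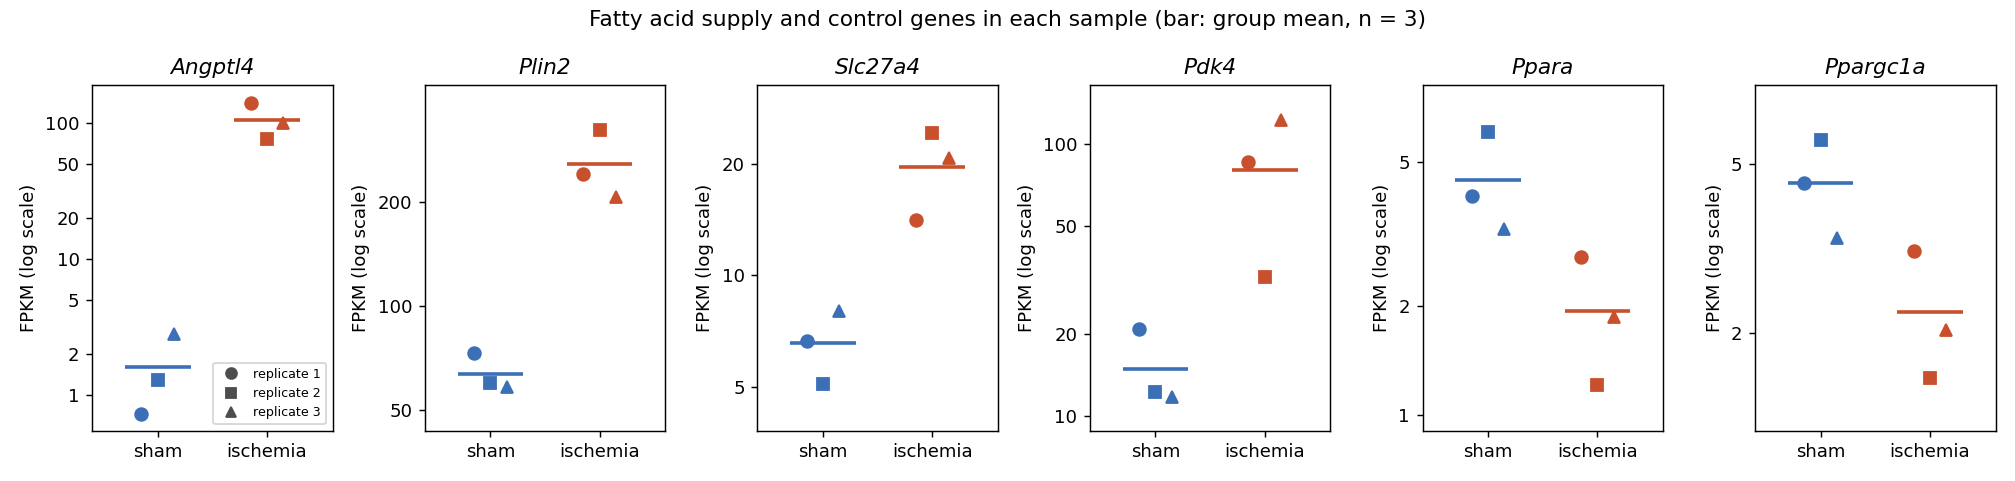
FPKM (y axes, log scale) of 6 supply and control genes in each sample, with marker shapes for replicate numbers and bars for the mean of 3 samples. The ischemia points of Angptl4, Plin2, Slc27a4 and Pdk4 lie above all sham points, and those of Ppara and Ppargc1a lie below them, with edgeR adjusted p of 0.118 and 0.121 for the last 2.

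The median of the members stayed below 0 with 4 other scalings over all genes, at -0.54 with median-ratio, -0.53 with upper-quartile, -0.40 with total-count and -0.41 with total-count scaling without the mitochondrial genome. When counts were scaled to the cardiomyocyte list, Actc1 included, instead of to all genes, the median of all genes moved to 1.10 on the log2 scale, which carries most genes upward by construction, and 30 of the 36 members were above 0 with a median of 0.58, which is below that of all genes. Under that scaling 3 members were called higher, Acsl4, Acsl5 and Cpt1a, and none lower, beside 24.9% and 0.609% of all genes, and the unadjusted p was under 0.05 for 4 members higher and 0 lower, 11.1% in either direction beside 49.3% of all genes. Acsl1 had a log2 fold change of -0.88 under this scaling. The fold changes of Acsl5 and Acsl4 were 2.17 and 3.78, which the upward shift of all genes includes.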

How the data were processed

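Total RNA of 6 rat myocardium samples, grouped by the treatment in their labels, had been sequenced with a stranded kit. The authors deposited raw counts per gene, not normalized, and FPKM values, counts which the authors scaled by gene length and library size. STAR and HTSeq are named in the submitters' processing notes, with versions and genome build not given in the sources used here. The study speaks of independent experiments, but the labels do not tie each sample to a separate animal, so p-values measure the spread between these samples, which may be technical.

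Members were the genes whose deposited KEGG annotation holds fatty acid degradation. Members, role groups and lists were chosen with earlier results of these data known. Counts of genes with a mean of at least 0.5 FPKM were tested with the quasi-likelihood test of edgeR 4.0.16 (R 4.3.3), with TMM scaling, all 6 samples, no covariates, and Benjamini-Hochberg adjustment over 13964 genes at a threshold of 0.05. DESeq2 1.42.0 and limma 3.58.1, the latter on log2(FPKM + 0.1), were alternatives, as were other scalings and filters, a replicate block, an atrial covariate and leaving out each sample. Leaving out sham samples 1 and 3 together was added after seeing the data. The tests were checked on simulated data. For single values, exact permutation tests (two-sided) were used, where 3 samples against 3 cannot give a p below 0.1. Promoters were taken from RefSeq (GRCr8), a build that was not matched to the positions in the table.

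By the rule for naming genes, every member could be named, and values in every sample were given for members past the adjusted threshold, the 3 most abundant tested members of each role group, the members with the highest and the lowest log2 fold change, the supply and control genes past the threshold, and Fabp3, Slc25a20, Ppara, Ppargc1a and Pdk4. Of the members given in every sample, Acaa2, Adh6 and Ehhadh, and the within-sample shares and ratios, were chosen after their values were seen. Marker lists covered cardiomyocytes, ventricle, atrium, white and brown adipocytes, neutrophils and monocytes, fibroblasts, endothelium, hepatocytes, lung epithelium and erythroid cells. The values of 1 member are not reported here, while it stays in the counts and medians.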

Additional observations from a re-analysis of the deposited data

How the results depend on the processing

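With 3 samples per group and a sham group of mixed atrial and ventricular markers, the counts of calls were unstable. Besides the 723 genes higher and 214 lower in the main test, DESeq2 called 2071 and 1742, the cardiomyocyte-list scaling 3474 and 85, and the atrial covariate 0 and 0. The added comparison with sham sample 2 alone gave 0 and 0, but its smallest adjusted p was 0.312, so its counts bear on nothing. Genes lower were 93 without a filter, 86 with total counts and 125 with total counts without the mitochondrial genome, and 462 genes higher passed a log2 fold change of 2 with an unadjusted p under 0.01. Leaving out 1 sample gave 0 to 1490 genes higher and 0 to 1115 lower.

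The replicate numbers did not pair the samples (mean correlation of same-numbered samples -0.12, of the others 0.06). With the replicate number as a block, edgeR called 0 genes in either direction, 0 members and 0 supply genes, with 3349 genes at an unadjusted p under 0.05 and a median of the members of -0.41.

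Members called were 2 higher and 2 lower by DESeq2 and 3 higher with the cardiomyocyte-list scaling, and over the left-out samples 0 to 1 higher and 0 to 5 lower. Their median was 0.58 with the cardiomyocyte-list scaling and -0.79 to -0.06 over the left-out samples. Supply genes called higher were 6 with the cardiomyocyte-list scaling, 0 with the atrial covariate and with sham sample 2 alone, and 0 to 4 over the left-out samples. Supply genes called lower were 6 by DESeq2, 1 by limma and 0 to 2 over the left-out samples. Without sham sample 1, 2 or 3 or ischemia sample 3 the supply calls were 0, and the calls of all genes were 0 as well.

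The cardiomyocyte-list scaling turned the log2 fold change to 0.60 for Acaa1a, 0.80 for Acadl, 0.76 for Acadm, 0.77 for Acadvl, 0.30 for Acat1, 0.77 for Acox3, 0.73 for Aldh2, 0.88 for Aldh7a1, 0.11 for Aldh9a1, 0.20 for Cpt1b, 0.31 for Cpt2, 0.74 for Hadha, 0.69 for Hadhb, 0.56 for LOC100911186 and 0.49 for Slc25a20, which follows from its construction, since it moved the median of all genes by 1.10. Over the left-out samples the sign turned for Acadl (-0.54 to 0.27), Acadm (-0.60 to 0.35), Acadvl (-0.56 to 0.34), Aldh2 (-0.63 to 0.34), Aldh7a1 (-0.40 to 0.053), Cpt1a (-0.15 to 0.66), Cpt2 (-1.37 to 0.25), Hadha (-0.68 to 0.29), Hadhb (-0.66 to 0.13), LOC100911186 (-0.89 to 0.28) and Slc25a20 (-1.10 to 0.24), mostly without sham sample 2. Aldh1b1 turned to 1.58 with the atrial covariate. Against sham sample 2 alone, which had 0 counts of it, its fitted 8.35 depends on the prior count and is no bound, and Cpt1a turned to -0.31 against sham sample 2 alone. The log2 fold changes of Acsl1, Acsl4, Acsl5, Angptl4, Plin2, Slc27a4, Pdk4, Ppara and Ppargc1a had the same sign in every alternative run, which for those above 0 follows from construction in the cardiomyocyte-list scaling. The cause of the other changes was not tested.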

Other observations

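Further genes of the supply and control list, chosen after their values were seen, separated the groups without passing the edgeR test. Ppargc1b, a relative of PGC-1 alpha, had 3.13, 6.24 and 3.01 FPKM in the sham samples and 1.51, 1.04 and 1.47 in the ischemia samples (edgeR adjusted p = 0.066, DESeq2 adjusted p = 0.00284). Oxct1, which lets muscle use ketone bodies, had 375, 351 and 274 FPKM in sham and 189, 162 and 198 in ischemia (edgeR adjusted p = 0.077, DESeq2 adjusted p = 0.00338). Hibch, an enzyme of valine breakdown, had 16.7, 15.4 and 14.7 FPKM in sham and 11.2, 6.50 and 7.17 in ischemia (edgeR adjusted p = 0.075, DESeq2 adjusted p = 0.00893). In each of these genes the 3 ischemia samples lay below the 3 sham samples, and in Oxct1 and Hibch sham sample 2 lay within the range of the other sham samples. Scaled to the cardiomyocyte list, which moved most genes upward, the log2 fold changes were -0.66 for Ppargc1b, 0.11 for Oxct1 and 0.032 for Hibch.

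Neighbouring mitochondrial pathways are set beside the fatty acid enzymes, with shared members left out and with no test of the difference. Of 28 tested genes of valine, leucine and isoleucine degradation, edgeR called 0 higher and 2 (7.14%) lower, beside 5.18% and 1.53% of all genes, the median log2 fold change was -0.77, and the groups did not overlap for 13 that were lower. Of 29 tested citrate cycle genes, 0 were called higher and 1 (3.45%) lower, the median was -0.76, and 11 did not overlap and were lower. The fatty acid enzymes had 0 calls, a median of -0.51 and 6 of 36 that did not overlap and were lower, beside 15% of all genes. The FPKM of sham sample 2 divided by the mean of the other sham samples had a median over genes of 1.62 for the fatty acid enzymes, 1.12 for the branched-chain genes and 1.32 for the citrate cycle, beside 0.778 for all tested genes.

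Other marker lists moved between samples as well. Summed FPKM of 6 adipocyte genes was 46.9, 90.0 and 347 in sham and 77.8, 24.4 and 8.45 in ischemia, with sham sample 3 the highest. Brown adipocyte genes summed to 88.5 to 359 in sham and 16.4 to 76.8 in ischemia, with Elovl3 at 0 counts in all samples, and fibroblast genes to 289 to 954 and 159 to 384. Endothelial genes summed to 64.4 to 101 in sham and 67.6 to 94.8 in ischemia, hepatocyte genes to 15.3 to 26.0 and 6.32 to 15.02, and the 1 erythroid gene found to 5.77 to 10.3 and 7.60 to 11.8. Lung epithelium genes summed to 402 in ischemia sample 1, almost all from Scgb1a1, and to at most 15.1 in the others. None of the tested genes of these lists passed the edgeR test, and their part in the values of the fatty acid enzymes was not tested.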
